A study of Mus musculus with 4 samples.

Results

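The genes described here are 46 genes of DNA replication and nucleotide synthesis, chosen by name for their role in S phase from 17762 genes listed in at least 1 library of the series. All 46 were listed in every library and all 46 passed the filter on low counts, among 12769 tested genes. They cover origin licensing, helicase activation, the polymerases, the sliding clamp and its loader, lagging-strand processing, deoxynucleotide supply, the copying of chromatin and DNA methylation, and the E2f transcription factors E2f1 and E2f2.

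Polyadenylated RNA came from adenomas of C57BL/6 mice aged 110 days, and every mouse carried ApcMin, a truncating mutation of the tumour suppressor Apc that leads to intestinal tumours. The control group was labelled ApcMin Strap WT (WT below) and the other group ApcMin Strap KO (KO below), with 2 libraries in each. The series text names the knockout genotype ApcMin StrapIEKO. The promoter that drives the deletion, the deleted part of Strap and whether each library is 1 animal or a pool were not given in the sources used here. The p-values therefore describe only how these 4 libraries vary.

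Strap checked the labels, at 61.3 and 43.8 FPKM in WT replicates 1 and 2 and 7.40 and 10.01 FPKM in KO replicates 1 and 2 (log2 fold change -2.57, SE 0.26, adjusted p = 0.0942, edgeR), so the libraries followed their labels although Strap itself missed the threshold of 0.05. FPKM divides a gene's reads by its length and by the size of the library, so that genes can be compared with each other. Each library held between 14084831 and 15640941 expected counts. The tissue label, colon adenoma, sat beside strong small-intestinal transcripts. The region genes of the small intestine summed to between 9046 and 15081 FPKM. Those of the colon summed to 7.29 and 21.7 FPKM in WT replicates 1 and 2 and to 4.27 and 5.26 FPKM in KO replicates 1 and 2. Of the 7 small intestine genes, 6 had their lowest FPKM in WT replicate 2. Gata4, for example, was at 40.4 and 8.25 FPKM in WT and 43.5 and 51.4 FPKM in KO. The other, Fabp6, had its highest FPKM in WT replicate 2 (952 and 5605 in WT, 1860 and 279 in KO). Car1, a carbonic anhydrase gene of colon enterocytes, was not listed in KO replicate 1 and reached 3.81 FPKM at most. Epithelial genes such as Epcam, at 777 to 1019 FPKM, dominated, while the fibroblast genes summed to at most 3.04 FPKM. Replicate 1 of both genotypes had Xist (54.7 and 10.5 FPKM) and no listed Ddx3y, a Y-linked gene, while replicate 2 of both had Ddx3y (8.62 and 7.57 FPKM) and almost no Xist. T and natural killer cell genes, summed over the 10 on the list, were at 281 CPM in KO replicate 2 against 31.2 to 51.1 CPM in the other 3 libraries. CPM is a gene's share of a library's reads, in counts per 1e+06, scaled here between libraries with TMM factors.

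DNA replication starts at origins, where the origin recognition complex, Cdc6 and Cdt1 load the Mcm helicase around the DNA before S phase. Kinases then recruit Cdc45 and the GINS complex to switch the helicase on, and the polymerases, the clamp Pcna and the lagging-strand enzymes copy the strands while ribonucleotide reductase and thymidylate synthase supply the building blocks. Most of these genes are switched on together at the entry to S phase by E2F factors, and in the intestine they mark the dividing cells of crypts and adenomas. Fewer dividing cells and less RNA per cell cannot be told apart in bulk RNA.

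Because E2F factors are known to drive this class of genes, their promoters were searched for E2F letters, and 3 promoters with a match and 1 without are shown. Promoters of 39 of the 46 genes were matched in RefSeq (build GRCm38.p6, the assembly behind mm10), and the 250 bases before each transcription start were searched on both strands. The E2F letters searched were TTTCCCGC, TTTCGCGC, TTTGCCGC and TTTGGCGC. They were present in 10 of the 39 genes (25.6%), in 2.16% of 27025 genes with a promoter in the table and in 3.89% of 10205 tested genes. The 10 were Cdc6, Dnmt1, Gins3, Mcm5, Mcm6, Mcm7, Orc1, Pola1, Rfc3 and Uhrf1. The letters CCAAT, bound by NF-Y, were present in 64.1% of the members, 37.5% of all genes and 40.9% of tested genes. For TTTGAA, the core of the CHR element of late cell cycle promoters, these shares were 17.9%, 18.3% and 12.8%. E2F matches may overlap each other across the strands, but none shares its letters with CCAAT or TTTGAA. A match is a description of letters and not of bound protein.

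The promoters below run 5′ to 3′ along the gene's strand and end at the base before the transcription start, with E2F matches of either strand in capitals. Mcm6, on the minus strand at chr1:128359706-128359955, held 3 matches, the most of any member, of which 2 overlap. Mcm7 (minus strand, chr5:138171884-138172133) and Cdc6 (plus strand, chr11:98907901-98908150) each held 1. Another Mcm7 promoter (chr5:138171267-138171516), not shown, held 0. The Cdc6 stretch lies inside the annotated gene (chr11:98907709-98923942), before a start within it. Rpa3 (minus strand, chr6:8259142-8259391), the member with the largest difference between the genotypes, held no match to these letters and 2 CCAAT matches.
Mcm6: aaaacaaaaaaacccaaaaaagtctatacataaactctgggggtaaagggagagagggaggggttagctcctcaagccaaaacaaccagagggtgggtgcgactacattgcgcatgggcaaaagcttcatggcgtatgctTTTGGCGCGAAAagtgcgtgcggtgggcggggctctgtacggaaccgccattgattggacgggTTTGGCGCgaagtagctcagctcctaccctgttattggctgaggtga
Mcm7: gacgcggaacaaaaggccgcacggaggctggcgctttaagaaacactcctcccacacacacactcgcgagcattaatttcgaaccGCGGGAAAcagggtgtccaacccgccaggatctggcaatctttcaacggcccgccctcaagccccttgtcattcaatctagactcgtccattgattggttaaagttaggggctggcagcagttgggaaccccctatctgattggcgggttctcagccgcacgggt
Cdc6: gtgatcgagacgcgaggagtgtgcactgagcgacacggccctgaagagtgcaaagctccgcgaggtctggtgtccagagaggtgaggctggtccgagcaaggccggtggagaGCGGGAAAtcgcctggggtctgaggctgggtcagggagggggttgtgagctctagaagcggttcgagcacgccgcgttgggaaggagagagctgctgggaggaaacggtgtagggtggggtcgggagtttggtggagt
Rpa3: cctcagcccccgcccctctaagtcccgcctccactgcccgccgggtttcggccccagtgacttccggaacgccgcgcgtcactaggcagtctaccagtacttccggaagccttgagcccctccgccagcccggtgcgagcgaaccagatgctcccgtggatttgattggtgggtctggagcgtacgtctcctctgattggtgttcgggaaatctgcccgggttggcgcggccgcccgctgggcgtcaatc

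Between the genotypes no replication gene passed the test. edgeR's quasi-likelihood test with Benjamini-Hochberg adjustment over all genes called 0 of the 46 higher and 0 lower in KO, and the smallest adjusted p of a member was 0.311. Over all tested genes 0.00783% were called higher and 0% lower, so the count of members is read against a comparison that called 1 gene. DESeq2 also called 0 members, where it called 233 genes higher and 424 lower over all tested genes. The limma fits called 0 members, but also 0 genes over all tested genes. At an unadjusted p under 0.05 edgeR had 1 member higher (E2f2) and 0 lower, against 7.08% of all genes higher and 8.69% lower. Log2 fold changes, KO against WT, ran from -0.44 in Cdc6 to 0.78 in Rpa3 with a median of 0.10, and the median over all tested genes was 0.00. Of the 46, 29 were above 0, where 50.3% of all tested genes were.

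The precision of the comparison was set by the 2 libraries per group. The median standard error of a member's log2 fold change was 0.27, and 0.30 over all tested genes. For 32 of the 46 genes the 95% interval of the edgeR fit lay wholly within a 2-fold change in either direction. The same held for 5151 of 12769 tested genes. A change of that size was therefore outside the interval for those 32 members, while smaller changes were not resolved. In FPKM, the KO values were both above the WT values for 9 members and both below for 5, and the share of all tested genes was 24.7% in each direction. With counts scaled by TMM these numbers were 7 and 7. The order of the groups differed between the 2 scales in 4 members, Cdc6, Rfc1, Gins2 and Rpa2.

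**Figure D1:**
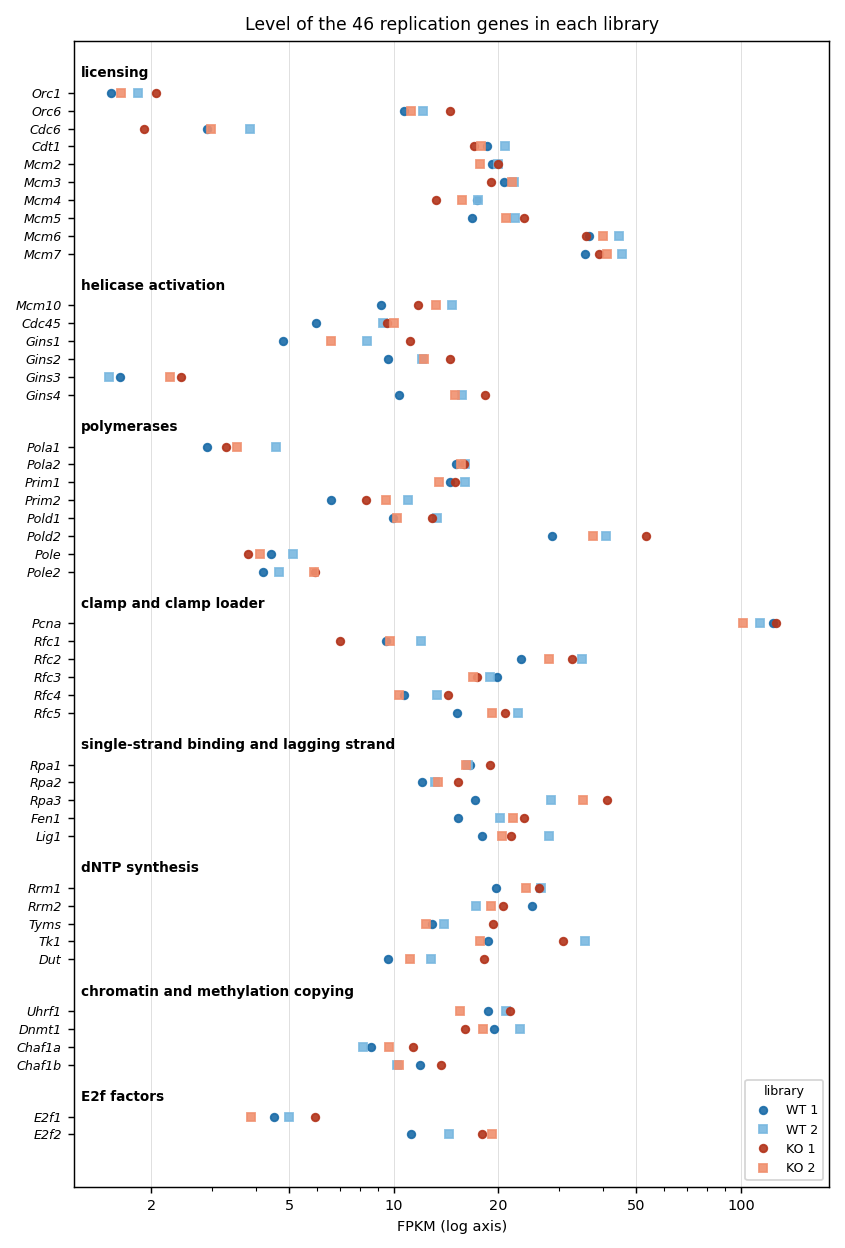
FPKM of each of the 46 genes (horizontal log axis) in the 4 libraries, grouped by role, with blue symbols for WT and red for KO, circles for replicate 1 and squares for replicate 2. Pcna stands highest at 102 to 126 FPKM and Gins3 and Orc1 lowest, and within most genes the 4 libraries lie closer together than the genes do.

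The gap between the 2 libraries of a genotype was larger than the genotype difference in most members. Such a gap compares single libraries, while the genotype difference compares means of 2 libraries, which vary less. Larger gaps are therefore frequent even where the genotypes do not differ. The gap between the WT libraries, on a log2 CPM scale, exceeded the size of the genotype difference in 30 of the 46 genes (45.7% of all genes), and the gap between the KO libraries did so in 31 (47.9% of all genes). The median gap was 0.32 within WT and 0.33 within KO, against a median genotype difference of 0.16. Over all tested genes these medians were 0.30, 0.33 and 0.35. The members' gaps were thus close to those of all genes, and their genotype difference was smaller. WT replicate 1 was the low library: it had the lowest FPKM of the 4 in 24 members, while 28.7% of all tested genes were lowest there. WT replicate 2 lay above WT replicate 1 in 39 of the 46 genes (50.6% of all genes), and KO replicate 1 above KO replicate 2 in 38 by CPM and 32 by FPKM (53.8% and 39.7% of all genes). The 46 genes summed to 749 and 893 FPKM in WT replicates 1 and 2 and to 913 and 804 FPKM in KO replicates 1 and 2, a range of 1.22-fold. The sums of the genotypes therefore overlapped. Replicates 1 and 2 of each genotype also differed in Xist and Ddx3y, and the WT libraries differed in the small intestine, colon and Paneth cell genes. The part of these differences in the gaps was not tested.

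The direction of the set depended on which libraries were compared. The median log2 fold change was -0.03 without WT replicate 1 and -0.08 without KO replicate 1, with 23 and 15 of 46 genes above 0. Leaving out WT replicate 2 gave a median of 0.28 with 37 genes above 0, and leaving out KO replicate 2 gave 0.27 with 36. Over all tested genes the medians of these fits, in the same order, were 0.01, -0.01, 0.02 and -0.05. The shares of all tested genes above 0 were 50.9%, 48.8%, 51.2% and 47.4%. Each of these fits left 1 library in a group, so only effect sizes are given.

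**Figure D2:**
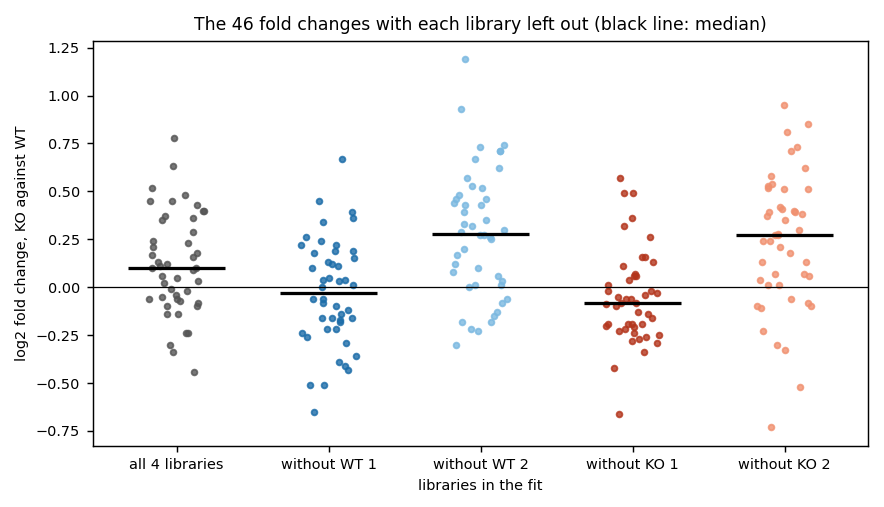
Log2 fold changes of the 46 genes (vertical axis, KO against WT) from all 4 libraries and with each library left out in turn, 1 point per gene and a black line at the median. The median lies at 0.10 with all libraries and between -0.08 and 0.28 when 1 is left out.

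Licensing genes had no common direction. Their summed level was 180 and 210 FPKM in WT and 186 and 191 FPKM in KO, and 4 of 10 were above 0 and 6 below, with a median log2 fold change of -0.03. Mcm6 and Mcm7, subunits of the ring-shaped helicase, were the most abundant. Mcm6 stood at 36.5 and 44.5 FPKM in WT replicates 1 and 2 and 35.8 and 40.1 FPKM in KO replicates 1 and 2. For Mcm7 the values were 35.7 and 45.4 FPKM in WT and 38.9 and 41.2 FPKM in KO. In both genes the KO values fell inside or just beside the WT range. Mcm2, which carries a histone-binding tail, was at 19.2 and 19.9 FPKM in WT and 19.98 and 17.7 FPKM in KO, a log2 fold change of -0.01 with a 95% interval from -0.52 to 0.49.

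Mcm4 had the smallest p of the helicase subunits. It was at 17.3 and 17.5 FPKM in WT and 13.2 and 15.7 FPKM in KO, so the groups did not overlap, and its log2 fold change was -0.24 (SE 0.18, adjusted p = 0.557, edgeR). Mcm3 lay between 19.0 and 22.2 FPKM and Mcm5 between 16.8 and 23.8 FPKM over the 4 libraries, with overlapping groups. Mcm6 and Mcm7 were the highest pair in every library, while the order of the others changed. Mcm7 was the highest of the 6 in 3 libraries and Mcm6 in WT replicate 1, and Mcm4 was the lowest in 3 and Mcm5 in WT replicate 1. The highest subunit exceeded the lowest by between 2.17-fold and 2.94-fold within a library.

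Among the genes that load the helicase, Cdc6 and Orc1 were scarce and Cdt1 was at the level of the lower Mcm genes. Cdc6, the ATPase that helps to load the ring, had the smallest p of the licensing genes, at 2.89 and 3.85 FPKM in WT and 1.91 and 2.98 FPKM in KO (log2 fold change -0.44, SE 0.34, adjusted p = 0.551, edgeR). Its WT replicate 1 and KO replicate 2 were nearly equal, and the groups overlapped in FPKM. In CPM, the scale closer to the test, KO replicate 2 was just below WT replicate 1 (both 12.8 when rounded), so the groups did not overlap. Its partner Cdt1 was at 18.6 and 20.9 FPKM in WT and 17.1 and 17.8 FPKM in KO. Orc1, the ATPase subunit of the origin recognition complex, was among the scarcest members, at 1.53 and 1.83 FPKM in WT and 2.06 and 1.63 FPKM in KO. Orc6, its smallest subunit, lay between 10.7 and 14.5 FPKM.

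Genes that activate the helicase pointed 1 way. All 6 had a log2 fold change above 0, with a median of 0.38, and none passed the test. WT replicate 1 was the lowest library in 5 of the 6, and the summed level was 41.5 FPKM there against 61.7 in WT replicate 2 and 67.6 and 59.4 in KO replicates 1 and 2. The KO values thus stood near WT replicate 2 and above WT replicate 1. Gins3, a subunit of the GINS complex, was the exception in which the WT libraries were alike. It was at 1.62 and 1.51 FPKM in WT and 2.44 and 2.27 FPKM in KO (log2 fold change 0.63, SE 0.43, adjusted p = 0.515, edgeR), from counts between 54 and 90.

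The other GINS genes were low in WT replicate 1. Gins4 was at 10.3 and 15.8 FPKM in WT and 18.3 and 15.1 FPKM in KO (log2 fold change 0.40, SE 0.32, adjusted p = 0.574, edgeR). Gins1 was at 4.80 and 8.37 FPKM in WT and 11.1 and 6.60 FPKM in KO, and both of its groups spanned more than the difference between them. Gins2 ranged from 9.59 FPKM in WT replicate 1 to 14.5 FPKM in KO replicate 1, and 67.3% of its annotated exon bases also lie in exons of Gse1 on the other strand. Cdc45, which joins GINS and the ring in the active helicase, was at 5.95 and 9.33 FPKM in WT and 9.56 and 10.01 FPKM in KO. Mcm10, a factor needed for helicase activation, was at 9.16 and 14.7 FPKM in WT and 11.7 and 13.2 FPKM in KO. Gins4 was the highest and Gins3 the lowest of the GINS genes in each of the 4 libraries, by between 6.38-fold and 10.4-fold.

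**Figure D3:**
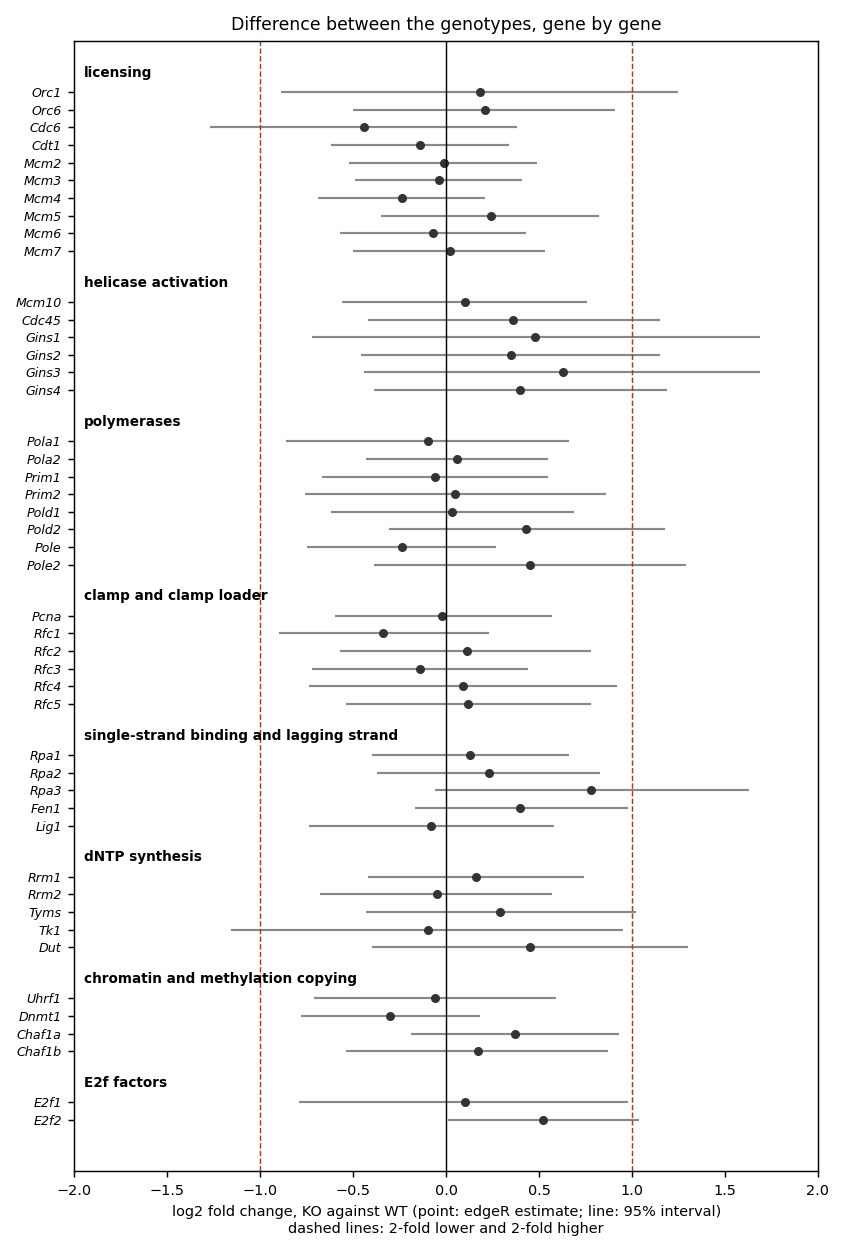
Log2 fold change of each gene, KO against WT, as a point with the 95% interval of the edgeR fit as a line, grouped by role. Dashed lines mark a 2-fold difference in either direction; 32 of 46 intervals lie between them and that of E2f2 alone stays on 1 side of 0.

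Among the polymerase genes 5 of 8 were above 0 and 3 below, with a median of 0.04. Pold2, the accessory subunit of polymerase delta, which extends the lagging strand, was the most abundant at 28.7 and 40.8 FPKM in WT and 53.3 and 37.4 FPKM in KO (log2 fold change 0.43, SE 0.30, adjusted p = 0.518, edgeR). Its KO replicate 2 lay below WT replicate 2, so the groups overlapped. The subunits of polymerase epsilon, the leading-strand enzyme, pointed in opposite directions without passing the test. Pole, the catalytic subunit gene, was at 4.43 and 5.12 FPKM in WT and 3.81 and 4.10 FPKM in KO, and Pole2 was at 4.2 and 4.66 FPKM in WT and 5.93 and 5.88 FPKM in KO. Neither overlapped between the groups. The log2 fold change of Pole was -0.24 (95% interval -0.75 to 0.27) and that of Pole2 0.45 (SE 0.34, adjusted p = 0.550, edgeR).

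The polymerase alpha and primase complex, which lays the RNA and DNA primers, held both even and variable genes. Pola2, its regulatory subunit, was the most even of all members, at 15.1 and 16 FPKM in WT and 15.96 and 15.6 FPKM in KO, a range of 1.06-fold. The primase gene Prim1 lay between 13.5 and 15.98 FPKM. Prim2, the large primase subunit, was at 6.58 and 10.95 FPKM in WT and 8.29 and 9.48 FPKM in KO, and Pola1, the catalytic subunit of polymerase alpha, at 2.89 and 4.58 FPKM in WT and 3.28 and 3.53 FPKM in KO. In Prim2 and Pola1 both KO values fell between the WT values, and the highest library exceeded the lowest by 1.66-fold and 1.58-fold. Pold1, the catalytic subunit of polymerase delta, was at 9.97 and 13.3 FPKM in WT and 12.9 and 10.2 FPKM in KO, also inside the WT range.

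Pcna, the sliding clamp that tethers the polymerases, was the most abundant member in every library. It stood at 124 and 114 FPKM in WT and 126 and 102 FPKM in KO (log2 fold change -0.02, SE 0.24, adjusted p = 0.979, edgeR), and the 95% interval ran from -0.60 to 0.57. The clamp loader genes showed no common direction, with Rfc1 and Rfc3 below 0 and Rfc2, Rfc4 and Rfc5 above. Rfc1, the large subunit, was at 9.46 and 12 FPKM in WT and 7 and 9.74 FPKM in KO (log2 fold change -0.34, SE 0.23, adjusted p = 0.510, edgeR). Its KO replicate 2 lay between the WT values in FPKM and just below both in CPM (43.7 against 43.8 and 55.5). Rfc3 was at 19.8 and 18.9 FPKM in WT and 17.4 and 16.9 FPKM in KO, with groups that did not overlap (-0.14, SE 0.24, adjusted p = 0.805, edgeR). Rfc2 was the highest and Rfc1 the lowest loader gene in every library, with a ratio from 2.45 to 4.67. Rfc2 ranged from 23.2 to 34.9 FPKM, Rfc4 from 10.4 to 14.3 FPKM and Rfc5 from 15.2 to 22.8 FPKM, each with overlapping groups.

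Genes of single-strand binding and lagging-strand processing held the largest difference. Rpa3, the smallest subunit of the single-strand binding protein RPA, was at 17.2 and 28.5 FPKM in WT and 41.0 and 35.1 FPKM in KO. Both KO libraries were above both WT libraries, but WT replicate 1 was far below WT replicate 2. The log2 fold change was 0.78 (SE 0.34, adjusted p = 0.337, edgeR), with a 95% interval from -0.06 to 1.63. Its partner subunits lay closer together: Rpa1 was at 16.6 and 16.4 FPKM in WT and 19.0 and 16.1 FPKM in KO, and Rpa2 at 12.1 and 13.1 FPKM in WT and 15.3 and 13.4 FPKM in KO. A test of the difference between the subunits was not made.

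Fen1, the nuclease that trims flaps between lagging-strand fragments, was at 15.3 and 20.3 FPKM in WT and 23.8 and 22.0 FPKM in KO (log2 fold change 0.40, SE 0.23, adjusted p = 0.451, edgeR). Its groups did not overlap by FPKM or CPM, and WT replicate 2 was nearer to the KO libraries than to WT replicate 1. An annotated antisense transcript, Gm10143, covers 78.8% of the exon bases of Fen1, and whether the libraries kept strand was not given in the sources used here. Lig1, the ligase that seals the fragments, was at 17.9 and 28.1 FPKM in WT and 21.7 and 20.5 FPKM in KO, inside the WT range. In all, 13 members share exon bases with a gene on the opposite strand in the GENCODE annotation.

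Deoxynucleotide genes differed mainly between libraries of the same genotype. Tk1, the thymidine salvage kinase, varied most within both groups, at 18.6 and 35.6 FPKM in WT and 30.7 and 17.7 FPKM in KO. High and low libraries were thus present in both genotypes, and its log2 fold change was -0.10 with a 95% interval from -1.16 to 0.95. Dut, which removes dUTP, was at 9.59 and 12.8 FPKM in WT and 18.2 and 11.1 FPKM in KO (log2 fold change 0.45, SE 0.35, adjusted p = 0.557, edgeR). Tyms, the thymidylate synthase gene, was at 12.9 and 13.9 FPKM in WT and 19.3 and 12.4 FPKM in KO (0.29, SE 0.30, adjusted p = 0.658, edgeR). In both genes KO replicate 1 was high and KO replicate 2 lay within or below the WT range.

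The subunits of ribonucleotide reductase, the enzyme that makes deoxynucleotides, differed in their pattern. Rrm1, the large subunit, was at 19.6 and 26.5 FPKM in WT and 26.1 and 24.0 FPKM in KO. Rrm2, the small subunit made in S phase, was at 24.9 and 17.2 FPKM in WT and 20.6 and 19.0 FPKM in KO, and both KO values fell between the WT values. Rrm2 was 1 of only 2 members with their highest FPKM in WT replicate 1 (the other was Rfc3), and in that library alone it exceeded Rrm1. Its log2 fold change was -0.05 (SE 0.26, adjusted p = 0.940, edgeR), and the 95% interval ran from -0.68 to 0.57.

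Genes that copy chromatin and methylation had a median log2 fold change of 0.05. Dnmt1, the maintenance DNA methyltransferase, was at 19.5 and 23.0 FPKM in WT and 16.01 and 18.01 FPKM in KO, below WT in both KO libraries (log2 fold change -0.30, SE 0.20, adjusted p = 0.495, edgeR). Uhrf1, which brings Dnmt1 to freshly copied DNA, was at 18.7 and 21.1 FPKM in WT and 21.6 and 15.5 FPKM in KO. Chaf1a, the large subunit of the histone chaperone CAF-1, was at 8.59 and 8.13 FPKM in WT and 11.3 and 9.66 FPKM in KO, above WT in both (0.37, SE 0.23, adjusted p = 0.472, edgeR). Its exon bases overlap those of Ubxn6 on the other strand by 52.5%. The partner subunit Chaf1b overlapped between the groups, at 11.9 and 10.2 FPKM in WT and 13.7 and 10.4 FPKM in KO.

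E2f2 had the smallest p of all members in the edgeR fit, and Rpa3 in DESeq2, limma and the fit with a replicate block. This activator E2F gene was at 11.2 and 14.4 FPKM in WT and 18 and 19.2 FPKM in KO, with no overlap of the groups. Its log2 fold change was 0.52 (SE 0.21, unadjusted p = 0.0465, adjusted p = 0.311, edgeR), with a 95% interval from 0.01 to 1.04. No member had an unadjusted p under 0.05 in DESeq2 or with the replicate block. The same held in edgeR with DESeq2 size factors, with library size alone or with at least 50 counts in at least 2 libraries. Without a filter edgeR had 1 such member, limma on log2(FPKM + 1) had 1 and limma on log2(FPKM + 0.1) had 2, all higher in KO. Without WT replicate 1 the log2 fold change of E2f2 was 0.34. E2f1, the other activator E2F on the list, was at 4.52 and 5 FPKM in WT and 5.93 and 3.88 FPKM in KO, with both groups overlapping (0.10, SE 0.36, adjusted p = 0.921, edgeR). Members with E2F letters in the promoter had a median log2 fold change of -0.06 (n = 10) and those without 0.12 (n = 29), and these medians are given as a description.

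The ranking of the 46 genes by level was similar across libraries. Over the 46 genes, Spearman's rho of FPKM between any pair of libraries lay between 0.881 and 0.955. This correlation is across genes that share libraries and lengths, and is a description. The median ratio of the highest to the lowest library was 1.43 for the members, 1.69 for all tested genes listed in all 4 libraries and 1.58 for 9748 tested genes in the same range of mean FPKM.

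Other genes of the pathway, on 5 further lists, gave 0 calls in either direction. Of 36 other replication factors 27 were above 0 with a median log2 fold change of 0.13, and at an unadjusted p under 0.05 there was 1 in each direction. Those of smallest p were Orc3, an origin recognition subunit (7.40 and 6.44 FPKM in WT, 4.13 and 5.25 in KO, log2 fold change -0.53), Dbf4, the regulatory subunit of the kinase that fires origins (9.91 and 12.5 FPKM in WT, 15.96 and 16.1 in KO, 0.55), and Pole3, a histone-fold subunit of polymerase epsilon (19.6 and 23.9 FPKM in WT, 40.1 and 30.8 in KO, 0.75). Their adjusted p values in edgeR were 0.298, 0.312 and 0.327.

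Other nucleotide synthesis genes had 21 of 34 above 0 and 7 higher at an unadjusted p under 0.05, with 0 lower, beside 50.3% of all tested genes above 0, 7.08% higher and 8.69% lower at that p. Samhd1, which breaks down deoxynucleotides and is known as an interferon-induced gene, was at 15.5 and 17.3 FPKM in WT and 22.3 and 31.2 FPKM in KO (log2 fold change 0.74, adjusted p = 0.237, edgeR). Nme1, a nucleoside diphosphate kinase gene, was at 46.7 and 52.7 FPKM in WT and 120 and 75.1 FPKM in KO (1.03, adjusted p = 0.251, edgeR). The purine synthesis gene Adsl was at 9.94 and 10.98 FPKM in WT and 18.4 and 15.3 FPKM in KO (0.73, adjusted p = 0.256, edgeR). All 3, named for their small p, were higher in both KO libraries than in both WT libraries, as were 24.7% of all tested genes.

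Regulators of the G1 to S transition had 10 of 26 tested genes above 0 and 16 below, with a median of -0.05, and an unadjusted p under 0.05 was found for 3 above and 1 below. Their smallest p values belonged to Tfdp2, an E2F dimer partner (log2 fold change -0.55), E2f6, a repressor E2F (0.72), and Ccne1, the cyclin E1 gene (0.78), with adjusted p values of 0.289, 0.291 and 0.299 in edgeR. Checkpoint and repair genes of S phase had 17 of 28 above 0 with a median of 0.08. The mismatch repair gene Msh6, at 11.5 and 11.3 FPKM in WT and 7.23 and 7.42 FPKM in KO, did not overlap between the groups (log2 fold change -0.60, adjusted p = 0.261, edgeR). Fanca, of the crosslink repair pathway, was at 0.76 and the uracil glycosylase gene Ung at -0.59, with adjusted p values of 0.273 and 0.392 in edgeR.

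Mitosis genes separated WT replicate 1 far more than the replication genes did. All 28 had their lowest FPKM in that library, where they summed to 258 FPKM against 660 in WT replicate 2 and 701 and 583 in KO replicates 1 and 2, a range of 2.72-fold beside 1.22-fold for the replication genes. The median log2 difference between WT replicates 2 and 1 was 1.28 for mitosis genes, 0.30 for the replication genes and 0.01 for all tested genes, and the difference between the lists was not tested. Of the 28, 24 were above 0 in KO with a median of 0.47, and 0 were called. Mybl2, which drives late cell cycle genes, had the smallest p (6.13 and 6.73 FPKM in WT, 10.6 and 10.6 in KO, log2 fold change 0.76, adjusted p = 0.227, edgeR), followed by the centromere histone gene Cenpa (1.18, adjusted p = 0.379) and the spindle checkpoint gene Mad2l1 (0.67, adjusted p = 0.430).

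**Figure D4:**
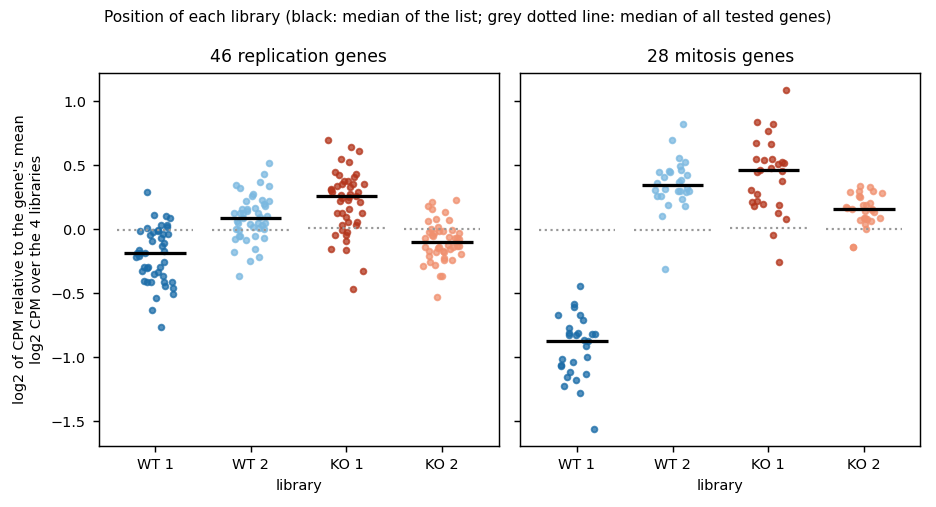
Log2 CPM of each gene relative to its own mean log2 CPM over the 4 libraries, for the 46 replication genes (left) and 28 mitosis genes (right), 1 point per gene, with a black line at the list's median and a dotted grey line at the median of all tested genes. WT replicate 1 lies at a median of -0.19 for replication genes and -0.87 for mitosis genes, and KO replicate 1 has the highest median in both.

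Markers of other cell types differed between the libraries as well. The 7 absorptive cell genes, all tested, summed to 17908 CPM in WT replicate 1 and 7580 in WT replicate 2. In KO replicates 1 and 2 they summed to 13575 and 15513 CPM, so they were highest where the replication genes were lowest. Apoa1, Sis and Lct are on both this list and the small intestine list. The 6 Paneth cell genes, all tested, summed to 10278 and 27863 CPM in WT and to 12893 and 8045 CPM in KO. All 6 had their highest FPKM in WT replicate 2. Crypt stem cell genes, all 5 tested, summed to 402 CPM in WT replicate 1, 1216 in WT replicate 2, and 365 and 542 in the KO libraries, a sum made up mostly of Olfm4 (188 and 875 CPM in WT, 176 and 348 in KO). All 5 had a log2 fold change below 0, and Lgr5, the stem cell receptor gene, did not overlap between the groups, with WT at 34.4 and 70.5 and KO at 4.85 and 6.26 CPM (-3.24, SE 0.41, adjusted p = 0.1, edgeR). Epithelial genes were lowest in KO replicate 2 (9973 CPM) and between 11597 and 13548 CPM in the others. The T and natural killer cell genes, 8 of 10 tested, were in the range of 35.9 to 51.1 CPM in WT and 31.2 to 281 CPM in KO, with Cd2 not listed in WT replicate 2 and KO replicate 1. KO replicate 2 had the highest FPKM of the 4 libraries in 2 of the 46 replication genes and in 3133 of 12769 tested genes. The part of absorptive, Paneth, stem and immune cells in the replication gene levels was not tested.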

How the data were processed

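RNA from 4 adenoma libraries was sequenced on a BGISEQ-500, per the labels' protocols. Bowtie2 2.2.5, RSEM 1.2.12 and the build mm10 are named, without their roles, in the submitters' processing notes. Each deposited table holds an expected count for every listed gene, per its header. The deposited FPKM values, per the file headers, are scaled by length and library size, and the lowest listed value is 0.01, so a gene missing from a table is called not listed. Tables were joined by gene identifier with pandas 2.3.3, and 1 row without a gene per library (at most 0.000233% of counts) was left out.

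Expected counts were rounded, and the genotypes were compared (R 4.3.3) with edgeR 4.0.16 (quasi-likelihood, genotype as the only term, TMM, filterByExpr, Benjamini-Hochberg over 12769 genes, threshold 0.05). Intervals use the fit's standard error and 5.9 degrees of freedom. Promoters and coordinates are RefSeq's (GRCm38.p6), and exon overlaps are from GENCODE vM21. The pipeline was tested on simulated data. Alternatives used DESeq2 1.42.0, limma 3.58.1 on FPKM, other scalings and filters, the replicate number as a block, and each library left out. All 46 members are described. Statistics are given for the 2 of smallest p in each of 8 roles, for Mcm2, Pcna, Rrm2, E2f1 and E2f2, and for the 3 of smallest p in each of 5 other lists. Members and lists were chosen with earlier results of these data known.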

Additional observations from a re-analysis of the deposited data

How the results depend on the processing

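Of the 12 alternative settings, those with all 4 libraries in the fit called no replication gene. Their median log2 fold change lay between 0.05 and 0.12. With all 4 libraries the directions that turned were those of genes close to 0. Mcm2 (0.01) and Pcna (0.00) turned without a filter. Mcm7 (-0.02) and Pold1 (-0.01) turned with library size alone and with at least 50 counts in at least 2 libraries, and both were at -0.01 in limma on log2(FPKM + 1) and on log2(FPKM + 0.1). Leaving out 1 library, the remaining lone library being assumed to vary like the other group, gave medians from -0.08 to 0.28 and between 15 and 37 genes above 0. The median over all tested genes lay between -0.05 and 0.02 in these fits. Of the 46 genes 19 kept their direction in each of these fits, and 27 did not. The ranges of log2 fold change of the 27 were Chaf1b -0.14 to 0.40, Dut -0.06 to 0.81, E2f1 -0.34 to 0.41, Gins1 -0.05 to 0.93, Lig1 -0.39 to 0.27, Mcm10 -0.22 to 0.48, Mcm2 -0.19 to 0.13, Mcm3 -0.10 to 0.00, Mcm6 -0.22 to 0.08, Mcm7 -0.16 to 0.20, Orc1 -0.09 to 0.39, Orc6 -0.08 to 0.42, Pcna -0.28 to 0.18, Pola1 -0.41 to 0.27, Pola2 -0.04 to 0.13, Pold1 -0.24 to 0.26, Prim1 -0.23 to 0.07, Prim2 -0.29 to 0.46, Rfc2 -0.17 to 0.43, Rfc4 -0.26 to 0.35, Rfc5 -0.16 to 0.44, Rpa1 -0.08 to 0.30, Rrm1 -0.06 to 0.39, Rrm2 -0.30 to 0.22, Tk1 -0.66 to 0.43, Tyms -0.16 to 0.62 and Uhrf1 -0.42 to 0.21. Over all genes edgeR called 1 higher and 0 lower, DESeq2 233 and 424, and the fit without a filter 19 and 8. With DESeq2 size factors, or with at least 50 counts in at least 2 libraries, edgeR called 1 higher and 0 lower. The 2 limma fits and library size alone called 0 genes over all genes, so their 0 members say nothing particular to this list. The replicate number as a block gave 0 calls among the members, a median of 0.11, and 46 higher and 70 lower over all genes. The labels do not say that equal numbers share an animal or day, but same-numbered libraries shared the Xist and Ddx3y pattern, so the block also separates the libraries by that pattern. Deviations of same-numbered libraries correlated at -0.12. With 2 libraries per group an exact permutation test of a single gene cannot go below p = 0.333. Scarce members rest on few counts, the lowest being 54.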
